A study of Homo sapiens with 8 samples.

Results

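T104 is an agonistic monoclonal antibody against the receptor CD30, and the 8 h RNA response to it was measured in Karpas299, an established human cell line of anaplastic large cell lymphoma (ALCL). The comparison set 2 arrays of T104-treated cells against 2 arrays of untreated cells, 4 of the 8 arrays in the series, and the sample labels alone decided which arrays entered it. Treated cells received T104 at 10 µg/ml after 16 h of culture and stayed in the same medium for 8 h, while untreated cells were kept without it. Another group, cells given 10 µg/ml of CD153-Fc (the natural CD30 ligand CD153 joined to an antibody Fc part) for 8 h, also had 2 arrays and was set against T104 directly. The other 2 arrays, of cells given both proteins, entered the normalization, the choice of probes and the estimate of spread, but neither contrast. All groups were the same CD30+ line, so each carried its NPM1-ALK fusion kinase. There was no group with a control antibody, so binding of CD30 by T104 and the addition of antibody protein cannot be told apart. The submitters call the 2 samples of a group biological duplicates. No source used here says how separate their cultures were, so p-values measure the spread between these samples.

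CD30, the product of TNFRSF8, is a receptor of the tumour necrosis factor (TNF) family and has no enzyme activity of its own. On clustering, it recruits TRAF adaptor proteins, which lead to the IkB kinases and to MAP kinases. The IkB kinases release NF-kB dimers from their IkB inhibitors, and in the alternative branch the kinase encoded by MAP3K14 causes the NFKB2 product to be cut to its active form, the partner of RELB. NF-kB switches on the genes of its own inhibitors, and MAP kinases act on AP-1 factors. In ALCL, CD30 is abundant and the ALK fusion drives STAT3.

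Each array was an Illumina HumanHT-12 v3 BeadChip with 48797 probes, of which 10713 to 12967 were detected per array (detection p under 0.01 against the negative control beads), with mean intensities of 722 to 850. Levels are given as normalized log2 intensities, changes as differences of these each with its standard error from the model (SE), and having 2 arrays in a group limits the precision. A feature is the brightest detected probe of a gene, or a probe with no gene name. A call required a Benjamini-Hochberg adjusted p under 0.05 in a limma model of all 8 arrays over 10182 features, 8508 of them named genes. The T104 duplicates resembled each other more than the untreated duplicates did, with r = 0.994 across features against 0.977, and an SD of the replicate difference of 0.23 log2 in T104 cells against 0.45 in untreated cells. Of 13 markers of ALCL and T cells, 8 were detected on both T104 and both untreated arrays, among them ALK at 13.45 and 13.56 in T104 cells and 13.10 and 13.46 in untreated cells. The T cell markers CD2, CD3E and CD7 were detected on 0 arrays of either group. B cell markers were detected on 0 of these arrays for 6 of 6 genes with a probe, stromal and epithelial markers for 9 of 9 and myeloid markers for 5 of 7, the other 2 being CD68 and CSF1R. Summed log2 levels were 32.1 and 33.0 with T104 and 31.8 and 33.5 without for the B cell markers, 48.9 and 47.8 with T104 and 46.9 and 48.6 without for the myeloid markers, and 48.5 and 47.4 with T104 and 48.3 and 47.5 without for the stromal and epithelial markers. In wider lists of these cells 1 B cell gene (EBF1, called lower by 0.69 log2, a call lost without either T104 array), 4 myeloid genes and 1 stromal gene could be tested, and limma called 0 of the myeloid and stromal genes (2 and 1 were higher at an unadjusted p under 0.05). Although the line is labelled CD30+, the TNFRSF8 probe was at 6.67 and 6.29 with T104 and 6.49 and 6.35 without, and passed detection on 0 T104 arrays and 1 untreated array, so no change of the receptor's own RNA could be measured. In RNA from whole cultures, fewer cells of a kind and less RNA per cell cannot be told apart.

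With T104, 520 features (5.11%) were called higher and 551 (5.41%) lower, 10.5% of all tested. Rises of at least 2-fold were called for 216 features (2.12%) and falls for 147 (1.44%), while 55 rises and 6 falls exceeded 2 log2, and 17 rises and 0 falls exceeded 3 log2, in fitted differences that include probes not detected in 1 group. The median called rise was 0.90 log2 and the median called fall -0.83 log2. The 2 T104 arrays did not overlap with the 2 untreated arrays for any called feature, a property of 51.4% of all features. Probes of 42 called rises were not detected on either untreated array, and those of 87 called falls on neither T104 array. Scaling arrays to equal medians in place of quantile normalization moved the median change of all features to -0.20 log2, against -0.02, and split the calls into 317 rises and 910 falls. The balance of rises and falls therefore depended on the scaling, and each list median below is to be read against -0.02 log2. At an unadjusted p under 0.05, limma had 2618 of 10182 features in either direction. This is the background for list counts at that limit, as 5.11% higher and 5.41% lower are for list calls. Leaving out 1 array moved the calls over all features too, upward most without untreated replicate 2. List counts for such settings are to be read against those totals, given with the single untreated arrays below.

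**Figure D1:**
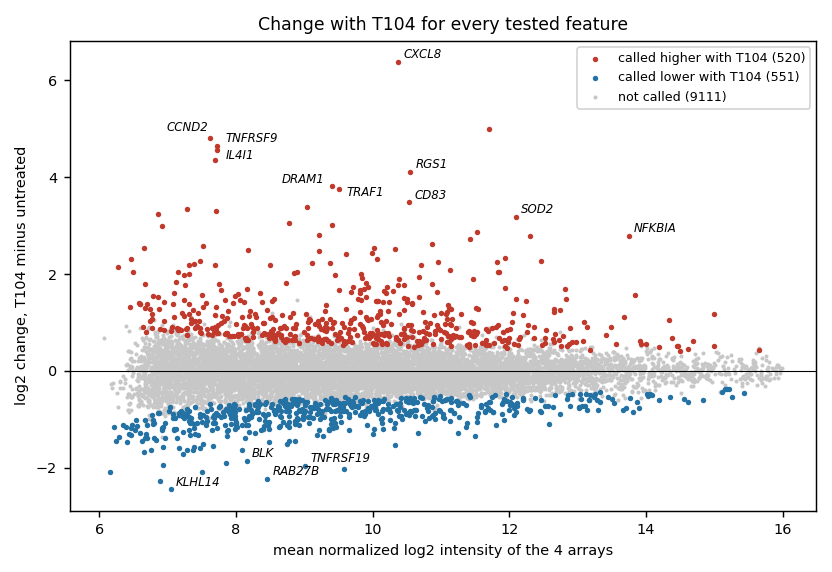
Log2 change with T104 (T104 minus untreated, vertical) against the mean normalized log2 intensity of the 4 arrays (horizontal) for all 10182 features, with 520 called higher in red, 551 called lower in blue and the rest in grey. Points of genes not detected in 1 group show a difference against background, and the highest point is CXCL8 at 6.37 log2.

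The largest rise belonged to a chemokine. CXCL8, the gene of the neutrophil attractant interleukin 8, stood at 13.46 and 13.65 in T104 cells, against 7.15 and 7.22 in untreated cells. That was a difference of 6.37 ± 0.19 log2 (SE, n = 2 arrays per group) or 83.0-fold (limma with Benjamini-Hochberg adjustment, adjusted p = 5.8e-10). The gene of cyclin D2, CCND2, which drives G1 progression, was at 9.92 and 10.13 with T104, against 5.17 and 5.27 without, where its probe was not detected. Against the lowest detectable signal, the rise was at least 9.84-fold (limma adjusted p = 1.83e-08). TNFRSF9 and IL4I1 had the same form, with a probe detected on both T104 arrays and on neither untreated one. TNFRSF9, the co-stimulatory receptor 4-1BB, lay at 10.02 and 10.07 with T104 and 5.54 and 5.25 without, a rise of at least 10.0-fold. IL4I1, a secreted oxidase of phenylalanine, lay at 10.09 and 9.93 in T104 cells and 5.28 and 5.60 in untreated cells, a rise of at least 9.76-fold.

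Other leading genes were detected in both groups. RGS1, a brake on G protein signalling, was at 12.68 and 12.53 with T104 and 8.40 and 8.59 in untreated cells, a rise of 4.11 ± 0.17 log2. DRAM1, a lysosomal membrane protein that promotes autophagy, reached 11.28 and 11.35 with T104, against 7.39 and 7.62, a rise of 3.81 ± 0.16 log2. TRAF1, a TRAF adaptor of CD30 itself, stood at 11.26 and 11.50 with T104 and 7.52 and 7.74 untreated, 3.75 ± 0.17 log2 higher. In each of these the lowest T104 array was more than 3 log2 above the highest untreated array. CD83, a surface marker of activated lymphocytes and dendritic cells, rose by 3.48 ± 0.15 log2, and CXCR4, the receptor of CXCL12, by 3.01 ± 0.21 log2. SOD2, the mitochondrial superoxide dismutase, was at 13.69 and 13.68 with T104, against 10.61 and 10.40, and rose by 3.18 ± 0.16 log2. All 15 largest named rises kept their call with each of the 4 arrays left out in turn and in every alternative setting that tested them.

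**Figure D2:**
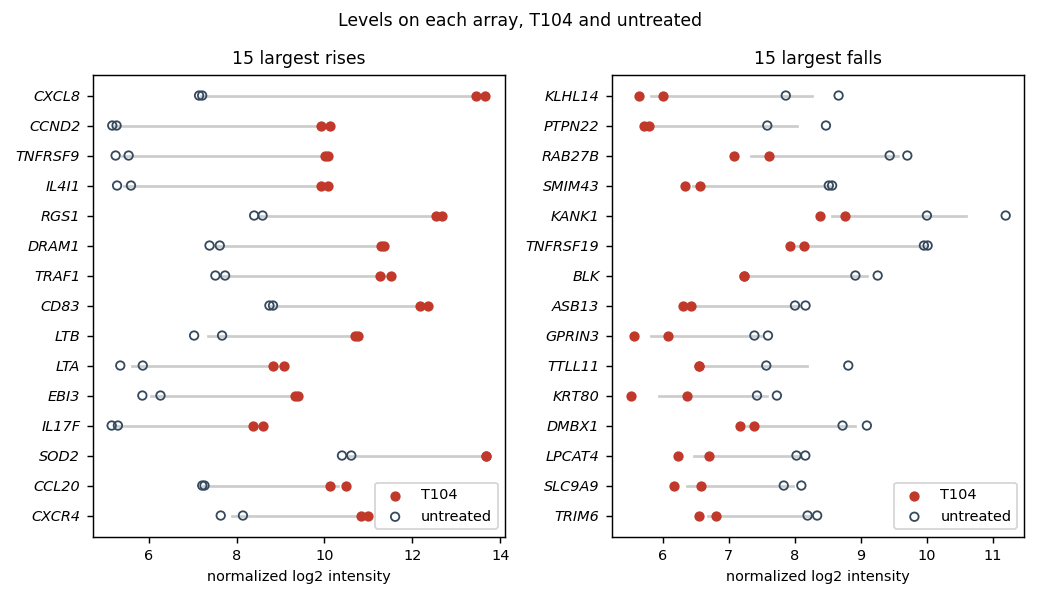
Normalized log2 intensity on each array for the 15 named rises (left) and 15 named falls (right) with the largest fitted difference, with T104 arrays as filled red circles, untreated arrays as open circles and a grey line between the group means. The 30 genes were picked among calls with groups that do not overlap, so their separation follows from the choice. The wide gaps between open circles for KANK1 and TTLL11 show where the untreated duplicates differed.

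Many falls ended below the detection limit. KLHL14, a BTB-Kelch protein, was at 5.65 and 6.00 with T104, where it was not detected, against 8.66 and 7.86 in untreated cells, at least 2.05-fold lower (limma adjusted p = 9.8e-05). PTPN22, a phosphatase that restrains antigen receptor signalling, was likewise not detected with T104 (5.79 and 5.72) and lay at 8.47 and 7.58 in untreated cells, at least 1.74-fold lower. RAB27B, whose GTPase docks vesicles for secretion, was at 7.08 and 7.60 with T104 and 9.71 and 9.44 without, a change of -2.23 ± 0.23 log2. Groups without overlap were a condition for naming these 3 genes, and untreated replicate 1 exceeded replicate 2 by 0.80 log2 in KLHL14 and 0.89 in PTPN22. TNFRSF19, an orphan member of the TNF receptor superfamily, fell by 1.96 log2 to 7.92 and 8.14 with T104, against 10.01 and 9.96. BLK, a Src family kinase best known from B cells, fell by 1.86 log2 to 7.23 on both T104 arrays, against 9.26 and 8.92. KANK1, which organizes the actin cortex, had 8.38 and 8.76 with T104 and 11.20 and 10.00 without, and its change of -2.03 log2 became -1.43 without untreated replicate 1 and -2.63 without untreated replicate 2. SMIM43 was at least 2.48-fold lower, ASB13 at least 1.81-fold, TTLL11 at least 1.94-fold, LPCAT4 at least 1.82-fold and TRIM6 at least 2.05-fold. The call of TTLL11, whose untreated arrays lay wide apart (7.57 and 8.81), was lost without T104 replicate 1 or 2. KRT80, a keratin not detected with T104, was at least 1.27-fold lower and lost its call without T104 replicate 2.

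The family at the centre of the pathway moved upward. Of 11 tested genes of NF-kB subunits and IkB inhibitors, 8 were called higher and 0 lower (in limma, 9 higher and 1 lower at an unadjusted p under 0.05), with a median of 1.56 log2. This list, like the others, was chosen with earlier results of these data known, so its share is not independent evidence. Among the subunits, NFKB2, whose product is cut to p52, had 10.70 and 10.52 in T104 cells, against 8.30 and 7.32 in untreated cells, a rise of 2.80 ± 0.25 log2 (limma adjusted p = 1.12e-05). RELB, the partner of p52, rose by 2.54 ± 0.18 log2 and NFKB1, the precursor of p50, by 1.56 ± 0.13 log2. Untreated replicate 1 of NFKB2 stood 0.98 log2 above replicate 2, and both T104 arrays exceeded the higher of them by over 2 log2. Among the inhibitors, NFKBIA, which encodes IkB alpha, was at 15.11 and 15.16 with T104 and 12.17 and 12.53 without, 2.79 ± 0.13 log2 higher. NFKBIE (IkB epsilon) rose by 2.23 ± 0.20 log2, the nuclear IkB gene NFKBIZ by 1.91 ± 0.16 log2, NFKBIB (IkB beta) by 1.00 ± 0.19 log2 and the nuclear IkB gene BCL3 by 0.68 ± 0.13 log2. NFKB1, NFKBIE, NFKBIZ, NFKBIB and BCL3, outside the naming rule, were named after their values were seen, as were the called members of other lists given below beyond the leading rises and falls of each. NFKBIB and BCL3 lost their calls without either T104 array (lowest values 0.98 and 0.65 log2).

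In the receptor-proximal layer, 13 of 31 tested genes were called higher and 1 lower, with a median of 0.44 log2. Without T104 replicate 1 or 2 there were 8 rises each, and without untreated replicate 2 there were 16. After TRAF1 came TNFAIP3, the A20 enzyme that ends signalling by removing ubiquitin chains, at 12.81 and 12.77 with T104 and 10.17 and 9.96 without (2.73 ± 0.14 log2). TNIP1, an A20-binding protein, rose by 2.31 ± 0.16 log2. Among further negative regulators CYLD, another deubiquitinase, rose by 1.31 ± 0.21 log2, and TRAF3, which holds the MAP3K14 kinase in check, by 1.23 ± 0.17 log2. The TRAF-binding ubiquitin ligase gene BIRC2 rose by 1.35 ± 0.19 log2 and the TRAF-binding adaptor gene TANK by 1.30 ± 0.14 log2. These 7 rises held without each array in turn, whereas that of TNIP2, another A20-binding protein (1.10 ± 0.21 log2), was lost without either T104 array (1.03 and 1.18 log2) and the rise of MAP3K14 (0.75 ± 0.21 log2) was lost without either T104 array or untreated replicate 1 (0.61, 0.88 and 0.60 log2). The single fall, of the stress kinase gene MAP3K5, was at least 1.51-fold, with no probe signal above background on the T104 arrays, and was no longer called without untreated replicate 1 or either T104 array.

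Promoters of the leading genes are shown because members of one pathway moved together and NF-kB and AP-1 bind short DNA motifs. RefSeq promoters of assembly GRCh38.p14, from 250 bases before to 50 after a gene's start, were matched by symbol for 7079 of the 8508 named genes tested. The NF-kB consensus (GGGRNNYYCC, where R is A or G, Y is C or T and N is any base) and the AP-1 motif (TGANTCA) were searched on both strands. Of the 15 largest rises, 14 had a promoter and 5 of these held an NF-kB match: TNFRSF9 (a pair of overlapping matches), RGS1, LTB, EBI3 and CCL20. They are given 5′ to 3′ with the NF-kB matches in capitals, followed by NFKBIA as the gene of the main IkB inhibitor, and by CXCL8, which held an AP-1 match (in capitals) and no match to the NF-kB consensus in this window. TNFRSF9 and EBI3 also held an AP-1 match, not marked here, so 3 of the 14 promoters had one. Exact matches alone were counted, so a stretch of CXCL8 that departs from the NF-kB consensus in its first base was not.
TNFRSF9, chr1:7940790-7941089, minus strand: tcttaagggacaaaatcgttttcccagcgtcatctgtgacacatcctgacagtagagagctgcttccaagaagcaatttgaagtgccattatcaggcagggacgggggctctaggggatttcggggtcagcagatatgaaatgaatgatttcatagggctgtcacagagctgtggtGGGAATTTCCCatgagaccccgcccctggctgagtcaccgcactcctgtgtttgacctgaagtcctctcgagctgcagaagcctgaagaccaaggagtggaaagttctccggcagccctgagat
RGS1, chr1:192575523-192575822, plus strand: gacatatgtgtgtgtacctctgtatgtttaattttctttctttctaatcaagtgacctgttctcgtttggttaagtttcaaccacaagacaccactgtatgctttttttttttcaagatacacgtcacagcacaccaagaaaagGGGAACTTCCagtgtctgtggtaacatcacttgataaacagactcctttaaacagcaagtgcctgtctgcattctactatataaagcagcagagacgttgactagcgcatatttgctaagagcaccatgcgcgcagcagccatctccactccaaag
LTB, chr6:31582376-31582675, minus strand: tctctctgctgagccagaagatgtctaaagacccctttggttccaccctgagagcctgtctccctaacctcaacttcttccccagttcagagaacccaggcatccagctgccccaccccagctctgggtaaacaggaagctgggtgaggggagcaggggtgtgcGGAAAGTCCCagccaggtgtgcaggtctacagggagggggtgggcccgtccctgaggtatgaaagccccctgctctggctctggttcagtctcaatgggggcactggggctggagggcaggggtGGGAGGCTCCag
EBI3, chr19:4229273-4229572, plus strand: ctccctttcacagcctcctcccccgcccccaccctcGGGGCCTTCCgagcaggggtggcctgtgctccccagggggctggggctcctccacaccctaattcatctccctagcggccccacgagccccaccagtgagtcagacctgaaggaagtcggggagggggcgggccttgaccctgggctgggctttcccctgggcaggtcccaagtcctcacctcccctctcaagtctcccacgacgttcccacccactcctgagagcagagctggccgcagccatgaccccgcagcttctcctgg
CCL20, chr2:227813592-227813891, plus strand: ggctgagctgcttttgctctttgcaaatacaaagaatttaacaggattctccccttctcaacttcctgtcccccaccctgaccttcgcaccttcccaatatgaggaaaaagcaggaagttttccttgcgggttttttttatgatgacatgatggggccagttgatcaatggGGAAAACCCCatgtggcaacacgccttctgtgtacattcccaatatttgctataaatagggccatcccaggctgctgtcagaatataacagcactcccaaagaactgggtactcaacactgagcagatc
NFKBIA, chr14:35404700-35404999, minus strand: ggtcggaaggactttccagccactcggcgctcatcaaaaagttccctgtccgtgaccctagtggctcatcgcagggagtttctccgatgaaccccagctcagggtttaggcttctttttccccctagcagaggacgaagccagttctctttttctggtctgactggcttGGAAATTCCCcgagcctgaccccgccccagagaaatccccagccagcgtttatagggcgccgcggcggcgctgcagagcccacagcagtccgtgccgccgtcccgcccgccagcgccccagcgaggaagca
CXCL8, chr4:73740319-73740618, plus strand: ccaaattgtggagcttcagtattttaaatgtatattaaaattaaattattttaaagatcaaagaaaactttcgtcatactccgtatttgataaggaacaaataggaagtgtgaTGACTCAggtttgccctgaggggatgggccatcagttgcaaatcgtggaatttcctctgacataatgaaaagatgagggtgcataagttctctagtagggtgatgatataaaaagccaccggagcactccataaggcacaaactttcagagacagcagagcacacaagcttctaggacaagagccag

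The first matched base lay at -74 in TNFRSF9, -106 in RGS1, -86 in LTB, -214 in EBI3, -79 in CCL20 and -81 in NFKBIA, counted from the start of the gene, and the AP-1 match in CXCL8 began at -137. LTB had another match at 38. An NF-kB match was held by 39 of 150 promoters (26.0%) of genes called at least 2-fold higher and by 73 of 365 (20.0%) of all called higher. Among genes called lower the share was 44 of 356 (12.4%), over all tested genes 923 of 7079 and over all RefSeq promoters given 2958 of 27305 (10.8%). For AP-1 the shares were 8.0% of genes called at least 2-fold higher, 9.64% of those called at least 2-fold lower, 4.32% of tested genes and 7.76% of all promoters. A match is a run of letters and not a measured binding site, and these shares were not tested.

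Cytokine genes moved in both directions. Of 52 listed, 50 had a probe and 14 were tested, with 9 called higher, 3 lower and a median of 1.16 log2. Detection on any 2 of the 8 arrays let a gene be tested, so EBI3 and IL17F entered through treated arrays alone. The counts and median of this list therefore partly follow from that filter. After CXCL8 came EBI3, a subunit of interleukins 27 and 35, at 9.39 and 9.33 with T104 and 5.86 and 6.27 without, where it was not detected, at least 6.24-fold higher. IL17F, a T helper 17 cytokine, was at 8.37 and 8.59 and also not detected in untreated cells (5.16 and 5.30), at least 3.38-fold higher. CCL20, the ligand of CCR6, stood at 10.49 and 10.12 with T104 and 7.22 and 7.27 untreated, 3.06 ± 0.23 log2 higher, and CXCL10, an interferon-induced chemokine, was at least 3.21-fold higher (8.45 and 8.36 with T104, against 5.45 and 5.39). The chemokine gene CCL5 (2.05 ± 0.20 log2) and the epithelial-acting cytokine gene IL22 (1.42 ± 0.16 log2), rose too. OSM (0.89 ± 0.20 log2) and IL32 (0.90 ± 0.18 log2) complete the rises, with OSM not called without either T104 array (0.81 and 0.97) and IL32 not without T104 replicate 1 (0.78). The 3 falls were IL26 (-0.83 ± 0.21 log2), IL18 (-0.59 ± 0.13) and the immunosuppressive cytokine gene IL10 (-0.54 ± 0.15). Of these falls 0 and 1 were called without T104 replicates 1 and 2. IL26, IL18 and IL10 stood at -0.87, -0.47 and -0.67 log2 without T104 replicate 1, and IL26 and IL10 at -0.78 and -0.42 without T104 replicate 2. The fall of IL26 was also lost without untreated replicate 1 (-0.47 log2).

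Of 25 cytokine and chemokine receptors, 9 rose and 1 was called lower, with a median of 0.41 log2, and 5 rises each remained called without T104 replicate 1 or 2. CXCR4 led with 10.98 and 10.83 in T104 cells, against 7.64 and 8.15 in untreated cells. CCR7, which guides cells to lymph nodes, was at 13.67 and 13.65 with T104 and 11.70 and 12.24 without (1.69 ± 0.17 log2), and IL21R at 10.47 and 10.21, against 8.25 and 9.10 (1.67 ± 0.23 log2). In IL21R untreated replicate 1 lay well below replicate 2, and the change was 1.24 log2 without untreated replicate 1. The interleukin 7 receptor gene IL7R (1.07 ± 0.17 log2) and IL2RA, the CD25 activation marker (1.02 ± 0.16 log2), also rose. CCR6, the receptor of CCL20, had probes that disagreed: the brightest was called lower (-0.37 ± 0.11 log2) and a dimmer one called higher (1.89 log2), so its direction is uncertain. The fall was not called without T104 replicate 1 or 2 or untreated replicate 1 (-0.33, -0.41 and -0.32 log2).

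Of 41 TNF superfamily ligands and receptors with a probe, 19 were tested, and 7 were called higher and 2 lower (median 0.25 log2). These counts too partly follow from the filter, as TNFRSF9 and LTA were tested through treated arrays alone. The lymphotoxin genes both rose. LTB, the membrane-anchored subunit, was at 10.68 and 10.77 with T104 and 7.03 and 7.67 without (3.38 ± 0.20 log2), and LTA, the soluble subunit, at 8.83 and 9.08 with T104 and 5.35 and 5.87 in untreated cells, where it was not detected (at least 4.69-fold higher). TNF itself (2.04 ± 0.18 log2), the co-stimulatory ligand gene CD70 (1.73 ± 0.16) and TNFSF10, which encodes the death ligand TRAIL (1.06 ± 0.16), rose as well and complete the ligands. TNFSF15, the TL1A ligand, fell by 1.11 log2, a call lost without T104 replicate 2 (-0.93 log2). Of 29 checkpoint and co-stimulation genes with a probe, 12 were tested, IL4I1 through treated arrays alone. Among the 12, 3 rose and 0 fell (in limma, 5 higher and 0 lower at an unadjusted p under 0.05). These were IL4I1, CD83 (12.18 and 12.37 with T104, against 8.83 and 8.75) and CD274, which encodes the checkpoint ligand PD-L1, at 9.65 and 9.62 with T104 and 7.68 and 7.97 without (1.81 ± 0.22 log2). Without untreated replicate 1 the checkpoint list had 5 rises.

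Of 23 genes of T cell receptor signalling and T cell identity, 2 were called higher and 5 lower, with a median of -0.05 log2. LYN, a Src family kinase, rose by 1.28 ± 0.17 log2 (13.35 and 13.23 with T104, 12.26 and 11.75 without), and CD5, an inhibitory T cell surface protein, was at least 1.58-fold higher, with its probe detected on 1 T104 array and on neither untreated array. PTPN22 and BLK had the largest falls, followed by PTPN6, the phosphatase SHP-1, at 7.46 and 7.91 with T104, against 8.70 and 8.65 (-0.99 ± 0.20 log2). SLA, an adaptor that dampens receptor signalling (-0.80 ± 0.18 log2), and CD4 (-0.68 ± 0.19 log2) completed the falls. The list had 1 rise and 2 falls without T104 replicate 1, and 1 rise and 3 falls without T104 replicate 2, against 5 and 9 without untreated replicate 2. Lost calls were those of CD5, SLA (-0.79 and -0.82 log2 without T104 replicates 1 and 2), CD4 (-0.66 and -0.70) and, without T104 replicate 1 alone, PTPN6 (-0.77). Without untreated replicate 1, CD4 stood at -0.41 log2 and was not called either.

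Within ALK, JAK and STAT3 signalling, 6 of 25 genes rose and 1 fell (median 0.14 log2), with 2 and 4 rises and 0 falls without T104 replicates 1 and 2, and 8 rises and 5 falls without untreated replicate 2. ALK was at 13.45 and 13.56 with T104 and 13.10 and 13.46 without, a difference of 0.22 ± 0.15 log2 that did not pass (limma adjusted p = 0.375). STAT5A, a mediator of interleukin 2 signals, rose by 1.26 ± 0.17 log2, the cytokine signalling inhibitor SOCS2 by 1.06 ± 0.16 log2, and the mucin gene MUC1, a known surface product of ALCL cells, by 0.97 ± 0.17 log2. STAT4, the mediator of interleukin 12 signals, fell by 0.71 log2. The calls of MUC1 (0.93 log2) and STAT4 (-0.74 log2) were lost without T104 replicate 1, and that of STAT4 also without T104 replicate 2 (-0.68 log2).

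Of 24 G1 cyclins, CDK inhibitors and E2F genes, 4 rose and 1 was called lower (median 0.12 log2), and CCND2 was the largest change of the 24. The list had 7 rises and 3 falls without untreated replicate 2. CDKN1A, which encodes the CDK inhibitor p21, was at 10.25 and 10.22 with T104, against 7.35 and 8.65 in untreated cells (2.23 ± 0.32 log2). Its T104 arrays were nearly equal while untreated replicate 1 lay far below replicate 2, and leaving out untreated replicates 1 and 2 in turn gave rises of 1.58 and 2.89 log2. E2F7, a repressive E2F, rose by 1.24 ± 0.16 log2 and CDK6, a kinase partner of D cyclins, by 1.23 ± 0.18 log2. E2F2 (-0.84 ± 0.24 log2, -1.29 without untreated replicate 1) lost its call without untreated replicate 2 (-0.39 log2) or either T104 array (-0.88 and -0.81). MYC, a driver of growth, was at 12.02 and 11.83 with T104 and 12.32 and 12.31 without and did not pass (-0.39 ± 0.14 log2, limma adjusted p = 0.108). Of 60 replication and mitosis genes, limma called 0 higher and 2 lower (1 and 11 at an unadjusted p under 0.05), with a median of -0.11 log2. The 2 were GMNN (-0.70 ± 0.19 log2), the replication licensing inhibitor geminin, and ORC6 (-0.44 ± 0.10 log2), and 0 were called without T104 replicate 1 or 2, where GMNN stood at -0.73 and -0.67 log2 and ORC6 at -0.45 and -0.43. Without untreated replicate 2 more members of the list were called, as were more features over all. Without untreated replicate 1 GMNN was at -0.40 log2 and not called.

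Of 13 p53 targets and GADD45 genes, 3 rose and 1 fell (median 0.19 log2). GADD45A, a growth arrest and stress kinase regulator, had 12.12 and 12.22 with T104 and 9.56 and 9.55 without (2.61 ± 0.14 log2). GADD45B rose by 1.20 ± 0.22 log2 and PMAIP1, the BH3-only protein NOXA, by 0.98 ± 0.19 log2, and both calls were lost without T104 replicate 2 (1.12 and 0.74 log2). XPC, a DNA damage sensor, changed by -0.62 ± 0.18 log2, which did not hold without either T104 array (-0.59 and -0.65) or untreated replicate 1 (-0.43). Among apoptosis regulators, 4 of 31 were called higher and 3 lower, with a median of -0.03 log2. Over all features 5.11% were called higher and 5.41% lower, which is the background for this list and the p53 list. The few apoptosis calls are not read as a result about that list. The caspase 8 inhibitor gene CFLAR (0.88 ± 0.15 log2), the mitochondrial protease gene HTRA2 (0.85 ± 0.15) and the death receptor adaptor gene TRADD (0.74 ± 0.16) were higher, and the caspase genes CASP6 (-0.82 ± 0.18) and CASP2 (-0.72 ± 0.13) and the necroptosis gene MLKL (-0.62 ± 0.16) lower. In this list 1 rise and 1 fall were called without T104 replicate 1, and 1 rise and 0 falls without T104 replicate 2, against 8 and 6 without untreated replicate 1 and 7 and 5 without replicate 2. CFLAR was not called without T104 replicate 1 (0.81 log2) and CASP2 without replicate 2 (-0.70). HTRA2 (0.83 and 0.87), TRADD (0.80 and 0.68), CASP6 (-0.89 and -0.75) and MLKL (-0.63 and -0.60) were not called with either T104 array left out.

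Immediate early genes and AP-1 factors (22 tested) had 8 rises and 2 falls (median 0.29 log2), and 4 rises and 0 falls were called without either T104 array. IER3, an early response gene induced by NF-kB, was at 11.48 and 11.67 with T104 and 8.63 and 9.50 without (2.51 ± 0.23 log2). ATF3, a stress-induced AP-1 partner, stood at 11.81 and 11.74, against 10.18 and 9.77 in untreated cells (1.80 ± 0.17 log2), and BATF, an AP-1 factor of activated lymphocytes, at 13.55 and 13.59, against 11.80 and 12.39 (1.48 ± 0.17 log2). JUN rose by 1.22 ± 0.20 log2, while FOS (-0.95 ± 0.24 log2) and ID3 (-0.83 ± 0.15 log2), an inhibitor of E proteins, fell. FOS was -0.99 and -0.91 log2 without T104 replicates 1 and 2 and -0.79 without untreated replicate 1, and ID3 was -0.82 and -0.84 without T104 replicates 1 and 2, with no call in any of these. Of 17 MAP kinase phosphatases and Sprouty-type inhibitors, 5 rose and 0 fell (in limma, 7 and 0 at an unadjusted p under 0.05). With arrays scaled to equal medians 2 rose, around a median of -0.04 log2, and with the 4 compared arrays alone 1 rose. Over all features these settings had 317 and 235 rises, against 520. DUSP1, which inactivates stress-activated MAP kinases, led at 11.39 and 11.27 with T104 and 9.07 and 9.81 without (1.89 ± 0.21 log2). DUSP4 (0.87 ± 0.21 log2) and SPRED1 (0.76 ± 0.16 log2) lost their calls without T104 replicate 2 (1.01 and 0.64), and DUSP4 also without T104 replicate 1 (0.73). The list had 2 and 1 rises without T104 replicates 1 and 2, and 8 without untreated replicate 2.

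Of 18 lymphocyte lineage transcription factors, 7 rose and 1 fell (median 0.03 log2), with 4 and 3 rises without T104 replicates 1 and 2. RORA, a nuclear receptor of the T helper 17 lineage, rose by 1.06 ± 0.17 log2 (9.54 and 9.68 with T104, against 8.51 and 8.59), and BCL6, a repressor that defines germinal centre and follicular helper cells, by 1.01 ± 0.15 log2. BHLHE40, a T cell activation factor, rose by 0.91 ± 0.13 log2. RUNX3 (0.90 ± 0.18 log2), ETS1 (0.63 ± 0.12) and ETS2 (0.56 ± 0.14) complete the rises and lost their calls without T104 replicate 2 (0.81, 0.63 and 0.59), ETS1 and ETS2 also without replicate 1 (0.64 and 0.53). IRF1, an interferon-induced factor, was at 10.89 and 10.67 with T104 and 8.64 and 10.03 without, and its rise of 1.44 ± 0.32 log2 became 0.75 without untreated replicate 1 and 2.13 without untreated replicate 2. Its call was lost without T104 replicate 1 or 2 (1.33 and 1.55 log2). TCF3, an E protein, changed by -0.69 ± 0.20 log2, with no call without either T104 array (-0.73 and -0.65) or untreated replicate 1 (-0.40).

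G protein signalling had large changes on both sides, 5 of 20 higher and 3 lower, around a median of 0.04 log2. Besides RGS1, the prostaglandin E2 receptor gene PTGER4 rose by 2.42 ± 0.16 log2 (11.30 and 11.10 with T104, 8.78 and 8.77 without), GPR132, a receptor of oxidized lipids, by 1.99 ± 0.15 log2, and RGS2, another regulator of G protein signalling, by 1.78 ± 0.15 log2. P2RY8, a receptor that confines germinal centre B cells, fell by 1.27 log2 (10.72 and 10.49 with T104, 12.04 and 11.72 without), GPRIN3 was at least 1.20-fold lower, and S1PR4, a sphingosine phosphate receptor, changed by -0.99 ± 0.24 log2 with its call lost without T104 replicate 1 (-0.84) or 2 (-1.15), and stood at -0.59 without untreated replicate 1 and -1.40 without replicate 2. Of 21 integrin, adhesion and tetraspanin genes, 4 rose and 2 fell (median 0.11 log2). NINJ1, whose product mediates plasma membrane rupture, was at 12.88 and 13.03 with T104 and 9.93 and 10.25 without (2.87 ± 0.15 log2), the tetraspanin gene CD82 rose by 1.57 ± 0.20 log2 and the intermediate filament gene VIM by 1.20 ± 0.18 log2. ITGAL, the alpha chain of the leukocyte integrin LFA-1, fell by 1.21 log2 (7.76 and 7.83 with T104, against 9.13 and 8.87), and ITGA4 by 0.84 log2 with its call lost without T104 replicate 1 (-0.86) or 2 (-0.82). Of 35 RAB GTPase genes, 6 were called higher and 2 lower, with 2 and 1 rises without T104 replicates 1 and 2. Dropping untreated replicate 2 raised the number of calls there and in the integrin list, as it did over all features. With all arrays, 5.11% of all features were called higher and 5.41% lower, and the 2 RAB falls lie near that share. Of the RAB genes called with all arrays, RAB27B alone changed by over 2 log2. RAB3IP, called higher (1.01 ± 0.17 log2), had a dimmer probe called lower (-0.77 log2). Over all called genes, 210 had more than 1 kept probe, and in 95 of these another probe was called the same way. Every other probe had the same sign in 188, and 3 (CCR6, CREB1 and RAB3IP) had a probe called the opposite way. Many gene calls thus rest on the brightest probe alone.

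Of 31 unfolded protein and integrated stress response genes, 7 rose and 0 fell (in limma, 12 and 1 at an unadjusted p under 0.05), with 1 and 2 rises without T104 replicates 1 and 2 and 14 without untreated replicate 2. With arrays scaled to equal medians 4 of the 31 rose, and with the 4 compared arrays alone 2. TRIB1, a pseudokinase, rose by 1.03 ± 0.18 log2, and ATF5, a stress-induced transcription factor, by 1.15 ± 0.31 log2. ATF5 was at 10.63 and 10.68 with T104 and 8.84 and 10.17 without, and its change ranged from 0.48 to 1.81 log2 as untreated replicates 1 and 2 were left out. Its call did not survive the loss of either T104 array (1.17 and 1.13 log2) or of untreated replicate 1. Of 30 glycolysis and hypoxia genes, 6 rose and 0 fell (10 and 4 at an unadjusted p under 0.05 in limma), with 1 rise each without T104 replicate 1 or 2. With arrays scaled to equal medians 4 of the 30 rose and 1 fell, and with the 4 compared arrays alone 2 rose. VEGFA, the angiogenic growth factor, lay at 9.05 and 8.96 with T104 and 6.54 and 8.11 without, a rise of 1.69 ± 0.36 log2. With untreated replicate 1 or 2 dropped it was 0.90 or 2.47 log2, and it was not called without T104 replicate 1 (1.64) or 2 (1.73). The glycolytic regulator gene PFKFB3 rose by 0.68 ± 0.12 log2 and was the 1 of the 6 that kept its call without each array. PFKFB4 (1.20 ± 0.22 log2), NDRG1 (0.98 ± 0.21), ANKRD37 (0.90 ± 0.17) and P4HA2 (0.53 ± 0.15) were not called without T104 replicate 1 (1.12, 0.88, 0.88 and 0.50) or 2 (1.28, 1.08, 0.91 and 0.55). Dropping untreated replicate 1 left NDRG1 at 0.60 and PFKFB4 at 0.76 log2. In redox defence and iron handling, SOD2 was the 1 rise among 28 genes, and in autophagy and the lysosome DRAM1 and the autophagy receptor gene OPTN (1.21 ± 0.16 log2) were the 2 among 27, with 0 falls in both lists (in limma, 3 and 2 lower at an unadjusted p under 0.05). With untreated replicate 2 dropped, the redox list had 3 rises and 5 falls, the autophagy list 8 and 1, the glycolysis and hypoxia list 9 and 5 and the cholesterol list 5 and 4. Of 27 cholesterol genes, HMGCS1, which makes the precursor of sterols (0.77 ± 0.13 log2), and the exporter gene ABCA1 (0.76 ± 0.16 log2) rose and HSD17B7 (-0.85 ± 0.15 log2) fell. ABCA1 was not called without T104 replicate 1 or 2 (0.66 and 0.86), nor HSD17B7 without replicate 2 (-0.78). Over all features 5.11% were called higher and 5.41% lower. The few calls in the redox, autophagy and cholesterol lists are therefore not read as results about those lists.

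Among interferon-stimulated genes, 5 of 30 were called higher and 3 lower (median -0.03 log2), against 5.11% and 5.41% over all features. With T104 replicates 1 and 2 dropped in turn the list had 2 and 3 rises, and without untreated replicate 2 it had 8 rises and 5 falls. GBP4, a guanylate-binding protein, was at 8.89 and 8.77 with T104 and 6.77 and 7.70 without (1.59 ± 0.27 log2), and ISG20, an RNA exonuclease, at 10.65 and 10.40, against 8.86 and 9.24 (1.48 ± 0.17 log2). The antiviral genes MX2 (-0.86 ± 0.18 log2) and MX1 (-0.60 ± 0.13 log2), which lie next to each other, and the DNA sensor gene IFI16 (-0.59 ± 0.14 log2) fell. These 3 falls were not called without T104 replicate 1 or 2, with MX2 at -0.95 and -0.78, MX1 at -0.64 and -0.55 and IFI16 at -0.54 and -0.64 log2. Of 12 cytotoxic granule genes, 0 rose and 3 fell in limma (3 higher and 5 lower at an unadjusted p under 0.05), and 0 fell without T104 replicate 1 or 2. CST7, a protease inhibitor of granules, had 10.42 and 10.38 with T104 and 11.33 and 11.12 without (-0.83 ± 0.16 log2). Its call was lost without T104 replicates 1 and 2 (-0.85 and -0.81 log2). GZMB, the granzyme B gene carried here as an ALCL marker, was at 15.40 and 15.25 with T104 and 14.87 and 15.19 without, and its difference of 0.29 log2 did not pass (limma adjusted p = 0.167).

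Over all features 5.11% were called higher and 5.41% lower. Of 66 cytosolic ribosomal protein genes, 0 were called higher and 1 lower (RPL37), of 60 oxidative phosphorylation genes 0 and 1 (NDUFB10), of 37 ribosome biogenesis and MYC target genes 0 and 2 (PPAT and SRM), of 26 antigen presentation genes 0 and 1 (ERAP2), and of 23 homologous recombination and end joining genes 0 and 2 (XRCC2 and DCLRE1C). At an unadjusted p under 0.05 limma had 1, 1, 0, 4 and 1 of these higher and 7, 5, 6, 3 and 3 lower. The background at that limit was 2618 of 10182 features in either direction. Heat shock proteins had 2 rises (DNAJB6 and DNAJA1) and 0 falls among 16, and 0 rises with equal medians or the 4 compared arrays alone. Their medians ran from -0.11 to 0.11 log2. No call named for these lists held without T104 replicate 1 or 2, with RPL37 at -0.77 and -0.88, NDUFB10 at -0.65 and -0.41, PPAT at -0.44 and -0.70, SRM at -0.49 and -0.58 and ERAP2 at -0.91 and -0.63 log2. The same held for XRCC2 (-1.05 and -0.80), DCLRE1C (-0.81 and -0.61), DNAJB6 (0.54 and 0.53) and DNAJA1 (0.43 and 0.50). Without untreated replicate 1, NDUFB10 (-0.43), SRM (-0.35) and DNAJA1 (0.30) were not called either, and ERAP2 and XRCC2 stood at -0.51 and -0.61 log2. Without untreated replicate 2 more members of each of these lists were called, as were more features over all.

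**Figure D3:**
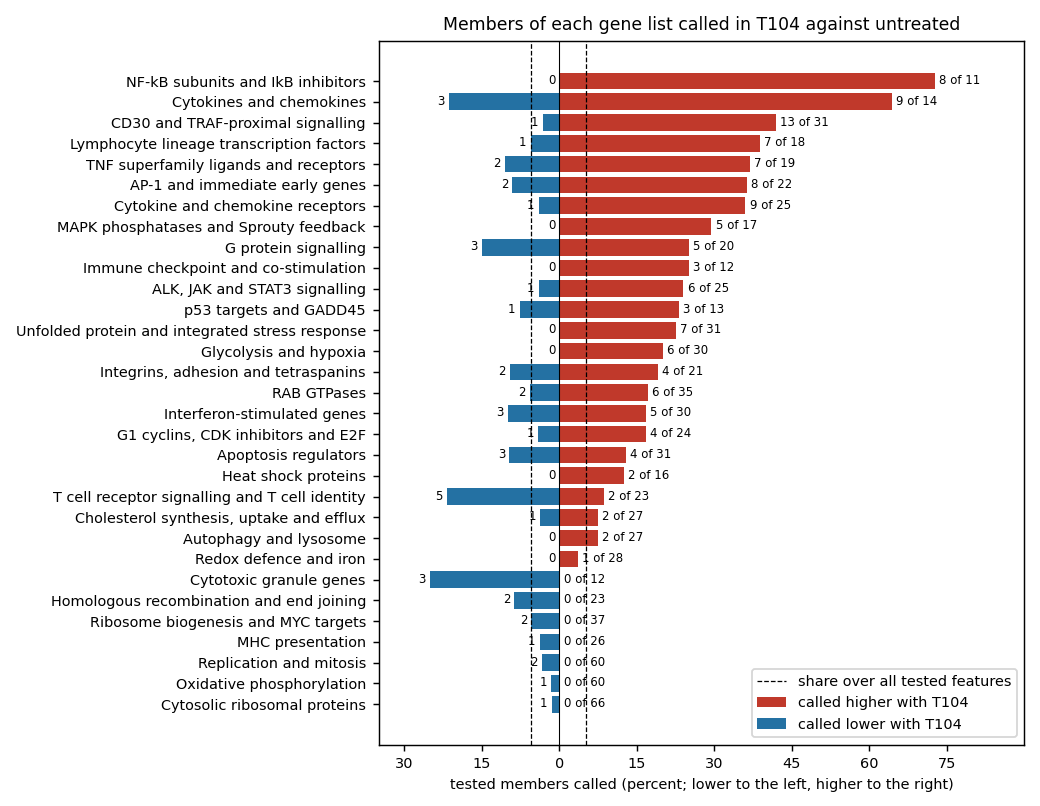
Percent of the tested members of each gene list called lower (to the left) and higher (to the right) in T104 against untreated cells, with counts at the bar ends and dashed lines at the shares of all 10182 features, 5.41% lower and 5.11% higher. Lists with under 11 tested members are left out, and NF-kB subunits and IkB inhibitors, with 8 of 11 higher, stand at the top. The lists were chosen with earlier results of these data known, and some members were tested only through detection on treated arrays.

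Setting T104 against CD153-Fc directly, at the same 10 µg/ml and 8 h, asked where the antibody and the ligand protein differed, with no untreated array in the contrast. Its standard errors still came from the spread pooled over all 8 arrays, the untreated duplicates among them. The doses were matched by mass and not by number of molecules. Of 10182 features, 55 (0.54%) were called higher with T104 than with CD153-Fc and 7 (0.0687%) lower, 0.609% in all, and 36 (0.354%) and 4 (0.0393%) of them by at least 2-fold. With the 4 compared arrays alone there were 410 calls, and with array weights per group 451. The small share therefore does not show that the antibody and the ligand act alike. CCND2 differed most, at 9.92 and 10.13 with T104 and 5.95 and 6.09 with CD153-Fc, where it was not detected, at least 9.10-fold apart (limma adjusted p = 1.57e-06). In CCL20 the levels were 10.49 and 10.12 with T104 and 7.89 and 7.62 with CD153-Fc, a difference of 2.55 ± 0.23 log2, and in CXCL8 they were 13.46 and 13.65 with T104 and 10.77 and 11.38 with CD153-Fc, a difference of 2.48 ± 0.19 log2. For CCND2, CCL20 and IL17F, the CD153-Fc arrays lay within 1 log2 of the untreated mean, whereas for CXCL8 they lay above all untreated arrays and below all T104 arrays.

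IL17F was at least 3.12-fold higher than with CD153-Fc, where it was not detected, and LTA 2.15 ± 0.31 log2 higher (8.83 and 9.08 with T104 and 6.25 and 7.36 with CD153-Fc, the CD153-Fc pair wide apart). ETV3L, an ETS family gene, was detected in T104 cells (7.24 and 7.44) and on neither CD153-Fc array (5.50 and 5.23), at least 1.42-fold higher. TNFRSF9 (1.96 ± 0.21 log2), SOD2 (1.74 ± 0.16), RGS1 (1.71 ± 0.17) and CXCL10 (1.69 ± 0.22) completed the 10 largest. Without T104 replicate 1 or 2, or CD153-Fc replicate 1, LTA and CXCL10 were not called (LTA 2.27, 2.03 and 1.60 log2, CXCL10 1.65, 1.74 and 1.55), nor was ETV3L without T104 replicate 1 or 2 or CD153-Fc replicate 2. The other 7 held without each of the 4 arrays. By list, the genes above CD153-Fc were 5 of 14 cytokines, 4 of 31 CD30 and TRAF-proximal genes (TRAF1, TNFAIP3, TNIP1 and BIRC2), 4 of 20 G protein signalling genes, 3 of 19 TNF superfamily members and 2 of 11 NF-kB subunits and inhibitors (NFKBIA, 0.72 ± 0.13, and NFKB1, 0.69 ± 0.13 log2). Of 25 receptors limma called 0, with 5 higher and 1 lower at an unadjusted p under 0.05. At that limit 845 of 10182 features passed in either direction. CXCR4, at 10.98 and 10.83 with T104 and 10.49 and 10.59 with CD153-Fc, differed by 0.37 ± 0.21 log2 (limma adjusted p = 0.713), which does not show that the agents act alike on it.

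The 6 named genes below CD153-Fc were KLHL14 (at least 1.24-fold lower), RAB27B (-1.41 ± 0.23 log2), TNFRSF19 (-1.15 ± 0.16), BLK (-0.99 ± 0.19), FYCO1 (-0.89 ± 0.18), an adaptor of autophagosome transport, and P2RY8 (-0.86 ± 0.16). With any 1 of the 4 arrays left out, 0 features were called lower, and rises numbered 11 and 10 without T104 replicates 1 and 2 and 17 without either CD153-Fc replicate. RAB27B ranged from -1.67 to -1.15 log2 over these, with no change of sign in any of the 6. TRMT6, a subunit of a tRNA methyltransferase, was called above CD153-Fc (1.11 ± 0.22 log2, limma adjusted p = 0.0392) at a level close to untreated cells (8.49 and 8.26 with T104, 7.35 and 7.19 with CD153-Fc, 8.45 and 8.02 untreated), a call lost without any 1 of the arrays (0.99 and 1.22 log2 without T104 replicates 1 and 2, 1.18 and 1.03 without CD153-Fc replicates 1 and 2).

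**Figure D4:**
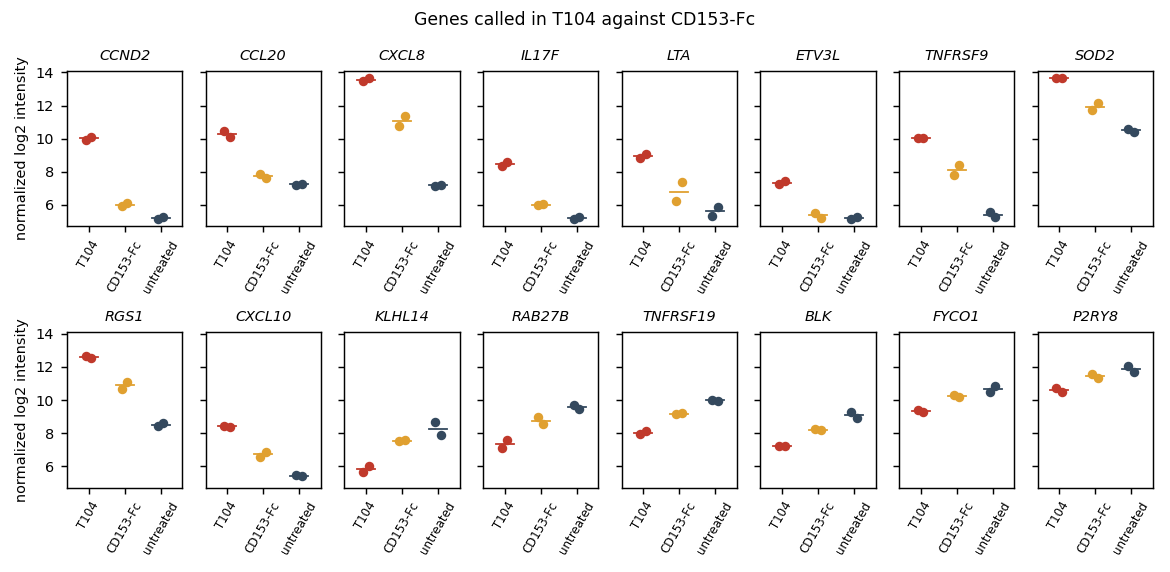
Normalized log2 intensity on each array (points) and group mean (lines) in T104, CD153-Fc and untreated cells for the 10 named genes with the largest call above CD153-Fc and the 6 called below it. T104 points lie above both CD153-Fc points in the first 10 genes and below them in the last 6, which was a condition for choosing them. CCND2, CCL20 and IL17F have CD153-Fc points near the untreated ones.

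Some called genes are neighbours on a chromosome. Of 4074 adjacent protein-coding pairs with both members tested (order from the RefSeq gene table), both members were called higher in 19 and both lower in 18, and the members were called in opposite directions in 15. Over all features 5.11% were called higher and 5.41% lower. The number of pairs expected from these shares was not computed, so the counts do not show that called genes cluster. TNF, between LTA and LTB, is counted in both of its pairs. On chromosome 6, LTA, TNF and LTB stand in a row and were all called higher with T104 than in untreated cells, TNF by 2.04 log2, LTB by 3.38 log2 and LTA by the bound given above. On chromosome 2 the interleukin 18 receptor genes IL18R1 and IL18RAP rose by 0.66 and 0.71 log2, and on chromosome 16 IL4R and IL21R by 0.55 and 1.67 log2. DOCK8 and KANK1 on chromosome 9 fell by 1.20 and 2.03 log2, and in both untreated replicate 1 was over 1 log2 above untreated replicate 2. IL18R1, IL18RAP and DOCK8 were not called without T104 replicate 1 (0.76, 0.59 and -1.09 log2) or T104 replicate 2 (0.56, 0.84 and -1.31), nor IL4R without either of these or untreated replicate 1 (0.68, 0.43 and 0.46). DOCK8 was at -0.68 log2 without untreated replicate 1 and -1.72 without replicate 2. These pairs were named after their values were seen.

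How far each change depended on 1 untreated array was read by setting the T104 mean against each untreated array alone. Keeping a call without 1 untreated array does not measure this, as more features were then called than with all arrays. Untreated array 1 lay below array 2 in 360 of the 520 called rises and above it in 363 of the 551 called falls. It was thus more often the untreated array farther from T104. The matching share over all features was not computed. CXCL8 was higher by 6.41 and 6.34 log2 against untreated arrays 1 and 2, RGS1 by 4.21 and 4.02, LTB by 3.69 and 3.06 and CXCR4 by 3.27 and 2.76. NFKB2 was higher by 2.31 and 3.29 log2, and IRF1 by 2.13 and 0.75. Among all calls, the untreated duplicates differed by more than 50% of the change in 137 rises and 159 falls. Without T104 replicate 1 or 2 there were 350 or 286 calls, and dropping untreated replicate 1 or 2 gave 1375 or 3419, against 1071 with all arrays.

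**Figure D5:**
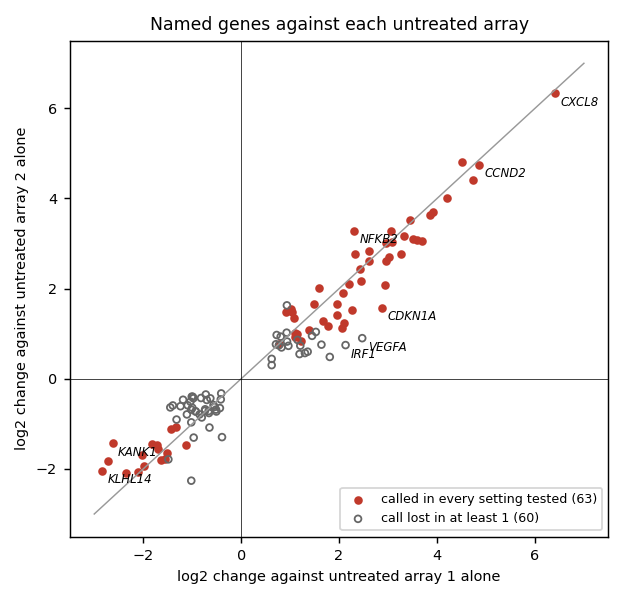
Log2 change of the 123 called named genes against untreated array 1 alone (horizontal) and untreated array 2 alone (vertical), with equal changes on the grey line. Filled points, 63 genes, kept their call in every setting and with each array left out, and open points, 60 genes, lost it at least once. VEGFA and IRF1 lie far below the line and CXCL8 close to it, and points of genes not detected in 1 group, such as CCND2 and KLHL14, rest on signals at background.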

How the data were processed

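RNA of Karpas299 cells was hybridized to 8 Illumina HumanHT-12 v3 arrays, 2 per group, with groups taken from the sample titles. The authors deposited probe intensities on a linear scale, not normalized, with a detection p-value per probe and array. The submitters' processing notes name GenomeStudio and the series design BeadStudio, and the sources used here give no version.

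Intensities were processed with neqc of limma 3.58.1 in R 4.3.3 (background from the detection p-values, offset 16, quantile normalization, log2). Probes with a detection p under 0.01 on at least 2 of 8 arrays were kept, 12543 of 48797, and the brightest probe stood for each gene. Of all probes, 28093 had 1 gene symbol in the platform annotation, 13 had several and 20691 had none. Probes without a single symbol were tested but not named. One mean per group was fitted over all 8 arrays with an intensity trend, the submitters' duplicates being the replicates, and p-values were adjusted by Benjamini-Hochberg over 10182 features, with calls under 0.05. Where a probe was not detected on either array of a group, the fold is a bound against the lowest detected signal, marked "at least".

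Named genes were the 15 largest non-overlapping rises and falls among those called, up to 3 rises and 3 falls called in each of 34 gene lists (839 of 1234 genes tested), the 10 largest in each direction against CD153-Fc, and TNFRSF8, ALK, MYC, NFKB2 and CDKN1A. Other called list members were named after their values were seen. The groups compared, the members and the lists were chosen with earlier results of these data known. The fits were tested on simulated data. Alternatives covered scaling, background, offset, detection filter, probe choice, array weights, trend, a replicate block, the authors' processed values, the 4 compared arrays alone and each array left out.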

Additional observations from a re-analysis of the deposited data

How the results depend on the processing

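The count of 1071 calls in T104 against untreated cells stayed within 1.5 times under median scaling (1227), no background correction (1087), an offset of 50 (1080), probes detected on all 8 arrays (840), no detection filter (795), the authors' processed values (1088), no intensity trend (1001), array weights (716) and the mean of a gene's probes (1085). With the 4 compared arrays alone it was 399, and with 1 array left out it ranged from 286 to 3419. Those lowest and highest counts came without T104 replicate 2 and without untreated replicate 2. A group then has 1 array, which is assumed to vary like the other groups. Against CD153-Fc, the 62 calls became 41 with probes detected on all 8 arrays, 410 with the 4 compared arrays alone, 451 with array weights and 10 to 17 with 1 array left out. The cause of these differences was not tested. CCR6 reversed, to 0.76 log2, with the mean of a gene's probes. Same-numbered replicates showed no shared deviation, with correlations of the replicate differences between groups from -0.0988 to 0.00685. This cannot settle whether they shared a culture or batch, which no source used here states. With a replicate block there were 890 calls against untreated cells and 46 against CD153-Fc. Of the 123 named genes called, 63 kept the call in every alternative and with each array left out, and 60 lost it at least once. For genes near the detection limit, signal over background limits the size of a fall that can be measured.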

Other observations

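Of the named genes called, 316 of 444 rises and 409 of 454 falls were in none of the 34 lists, which hold 839 of the 8508 named genes tested. Those given here were picked after their values were seen. TIFA, an adaptor that activates TRAF6, was at 10.35 and 10.56 with T104 and 7.61 and 8.33 without (2.48 ± 0.22 log2). IRAK2, a kinase of interleukin 1 receptor signalling, was at 10.71 and 10.93 with T104 and 8.14 and 8.67 without (2.41 ± 0.19 log2). NLRP3, the inflammasome sensor, rose by 1.37 ± 0.18 log2, and ZC3H12A, an RNase that degrades inflammatory transcripts, by 1.61 ± 0.22 log2. The groups did not overlap in any of the 4, as in every called feature. GPR84, a receptor of medium-chain fatty acids, rose by 2.33 ± 0.18 log2, NFE2L3, a transcription factor of the NRF family, by 2.50 ± 0.20 log2, and NAMPT, which makes an NAD precursor, by 2.28 ± 0.16 log2 to 13.62 and 13.57 with T104, against 11.36 and 11.28. BDNF, a neurotrophin, was at least 3.41-fold higher and FOXO3, a stress-responsive transcription factor, at least 2.73-fold higher.

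Falls outside the lists included PCDH18, a protocadherin, at 9.43 and 9.70 with T104 and 11.08 and 11.12 without (-1.53 ± 0.16 log2). TRAF3IP3, a TRAF3-binding protein of lymphocytes, was at 7.97 and 8.15 with T104 and 9.70 and 9.31 without (-1.44 ± 0.19 log2). The cytosolic isocitrate dehydrogenase gene IDH1 fell by 1.28 log2. PLCB2, a phospholipase downstream of G proteins, was at least 1.69-fold lower. These 4 falls kept their calls with each array left out. MYB, a transcription factor of immature blood cells, fell by 0.65 log2, a call lost without T104 replicate 1 (-0.56 log2).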
